A study of Mus musculus with 10 samples.

Results

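The Maf locus was examined as the 37 accessible regions (peaks) that overlap a window of 500000 bases on mouse chromosome 8, chr8:115400000-115900000 (GRCm38), out of 97385 peaks in the whole table. Position alone set the window, but the locus was selected on accessibility differences between genotypes and tissues in these same libraries, the CPM and fold changes given below. Its levels and its differences are therefore a description, and the p-values printed with them come from a fit across all peaks and are no independent evidence. Of the 37 peaks, all 37 held enough counts to enter that fit. The gene itself occupies chr8:115682942-115707794 on the minus strand, with annotated transcript starts at 115707096 and 115707794. A further 34 peaks lie in no gene, and assignment of any of them to Maf was not tested.

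To ask how the lipid kinase Vps34, encoded by Pik3c3, shapes the chromatin of regulatory T cells (Tregs), the study used ATAC-seq, in which a transposase cuts and tags open DNA. CD4+Foxp3-YFP+TCRb+ Tregs were sorted from the spleen or the lung of mice aged 10 days. Every mouse carried Foxp3-Cre, a recombinase and YFP reporter driven by the Treg lineage gene, so the floxed Pik3c3 alleles are deleted in Foxp3-expressing cells. Control mice were Foxp3Cre Pik3c3+/+ or Foxp3Cre Pik3c3+/fl, so a control library can hold cells that have lost 1 copy, and Vps34-deficient mice were Foxp3Cre Pik3c3fl/fl. Spleen gave 2 control and 4 Vps34-deficient libraries and lung gave 2 of each genotype, 10 in all. The labels do not say that replicates are separate animals. Every group held libraries with few counts on chromosome Y (7.03 to 21.4 CPM, counts per 1000000 counts of the library) and with many (56.9 to 67.6 CPM), so the replicates of a group do not all come from 1 animal. The p-values measure the spread between these libraries. The methods of the study give the sizes of the spleen groups the other way round, with more controls than Vps34-deficient samples. The labels were followed, and the direction of every spleen difference between genotypes rests on them. With the labels as given, all 7 peaks of the locus called between genotypes in spleen were lower without Vps34, as they were in lung, where both sources give the same group sizes. Since the locus was selected on such differences in these libraries, this is no check of the labels.

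Library totals ran from 9405823 to 22439699 counts. Of the 6 tested peaks in Pik3c3 or within 10 kb of it, 0 were called in spleen and 0 in lung between genotypes by edgeR, with log2 fold changes from -0.12 to 1.13 and from -0.22 to 1.04. Peaks at the Foxp3 starts held 64.2 to 89.1 CPM. No tested peak lay at the starts of the B cell genes Cd79a and Ms4a1, of the myeloid genes Lyz2, Csf1r, Adgre1 and Cd68, or of the surfactant genes Sftpc and Sftpb. Other genes of the same lists did have peaks there, with 13.2 to 19.1 CPM at Pax5 and 14.1 to 19.7 CPM at Ebf1 (B cell), 9.58 to 17.2 CPM at Spi1, 7.99 to 14.1 CPM at Cx3cr1 and 0.635 to 1.81 CPM at Itgam (myeloid), and 16.8 to 24.8 CPM at Epcam, 5.93 to 9.89 CPM at Cdh1 and 0.361 to 2.12 CPM at Nkx2-1 (lung epithelium).

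Maf encodes c-Maf, a transcription factor of the large Maf family that binds DNA through a basic leucine zipper. In T cells c-Maf is known for driving Il10 and other effector genes, and in Tregs it takes part in the differentiation of effector and tissue populations. Genes of this kind are often surrounded by distal regulatory elements, whose accessibility can change with the state of the cell. Macrophages also use Maf, so that signal at this locus is not particular to T cells.

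The sequences of 4 distal peaks with lower accessibility in Vps34-deficient Tregs of both tissues are shown because they are among those on which the differences at the locus rest. They are named by the distance of the peak's near edge from the Maf start. A further one, the most open distal peak, is shown for comparison because it was not called. Each run is the central 300 bases of the peak, read from RefSeq GRCm38 on the plus strand. Capitals mark matches, on either strand, to 10 short motifs, and no matches overlapped in these windows.
18.5 kb upstream, chr8:115726608-115726907: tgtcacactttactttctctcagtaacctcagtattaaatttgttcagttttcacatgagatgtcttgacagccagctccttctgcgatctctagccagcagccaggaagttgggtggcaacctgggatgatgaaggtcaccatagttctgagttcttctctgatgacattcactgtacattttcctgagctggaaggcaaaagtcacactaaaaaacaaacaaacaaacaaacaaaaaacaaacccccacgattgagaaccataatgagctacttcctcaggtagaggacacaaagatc
34.8 kb upstream, chr8:115742713-115743012: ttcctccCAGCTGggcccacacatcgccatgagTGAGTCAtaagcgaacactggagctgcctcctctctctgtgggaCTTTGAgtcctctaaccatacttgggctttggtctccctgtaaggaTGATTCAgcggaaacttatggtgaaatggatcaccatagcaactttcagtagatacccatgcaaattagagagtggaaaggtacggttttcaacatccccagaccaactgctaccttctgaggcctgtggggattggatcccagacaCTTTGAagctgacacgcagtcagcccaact
39.8 kb upstream, chr8:115747721-115748020: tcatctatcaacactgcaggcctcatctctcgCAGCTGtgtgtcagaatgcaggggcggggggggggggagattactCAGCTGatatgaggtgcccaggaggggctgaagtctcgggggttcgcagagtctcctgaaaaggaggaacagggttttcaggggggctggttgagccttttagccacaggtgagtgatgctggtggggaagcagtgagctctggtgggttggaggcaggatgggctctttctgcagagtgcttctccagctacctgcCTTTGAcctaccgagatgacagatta
176.1 kb downstream, chr8:115531200-115531499: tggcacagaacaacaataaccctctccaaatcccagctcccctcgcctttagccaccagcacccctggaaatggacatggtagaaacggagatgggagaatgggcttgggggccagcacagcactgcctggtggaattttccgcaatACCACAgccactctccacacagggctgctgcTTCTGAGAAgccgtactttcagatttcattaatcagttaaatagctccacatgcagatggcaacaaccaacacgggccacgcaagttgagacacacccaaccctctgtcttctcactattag
307.1 kb downstream, chr8:115400197-115400496: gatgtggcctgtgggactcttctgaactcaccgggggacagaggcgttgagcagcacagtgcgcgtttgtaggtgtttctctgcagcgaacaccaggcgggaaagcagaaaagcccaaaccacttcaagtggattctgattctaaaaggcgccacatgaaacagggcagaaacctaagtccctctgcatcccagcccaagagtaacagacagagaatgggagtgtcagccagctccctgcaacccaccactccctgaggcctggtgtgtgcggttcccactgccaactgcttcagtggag
The window at 34.8 kb upstream held matches to AP-1 at positions 34 and 124, counted from 1 at its left end, to the E-box at position 8 and to TCF/LEF at positions 78 and 271. At 39.8 kb upstream there were E-box matches at positions 33 and 78 and a TCF/LEF match at 275, and at 176.1 kb downstream a RUNX match at 148 and a STAT match at 179. The windows at 18.5 kb upstream and 307.1 kb downstream held none of the 10 motifs, which says only that those letters are not in these windows.

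In all, 12 peaks of the locus were called lower in Vps34-deficient Tregs of at least 1 tissue, as described below, and 25 were not. The AP-1 letters TGANTCA were in 4 of the 12 windows and 3 of the 25, beside 13.0% of the 97243 windows of this length over all peaks. The E-box CAGCTG was in 4 of the 12 and 2 of the 25, beside 17.8%. RUNX (TGTGGT) was in 5 and 7 (26.5% of all windows), TCF/LEF (CTTTGA) in 4 and 5 (21.6%), the Maf half-site (TGCTGA) in 2 and 4 (23.3%), STAT (TTCNNNGAA) in 1 and 6 (9.29%) and the letters of GATA factors (AGATAA) in 1 and 6 (15.1%). NF-kB was in 0 and 4 (17.2%), CTCF (AGGGGGC) in 0 and 1 (8.23%) and ETS (CCGGAAG) in 0 of either (4.44%). A match is a description of the letters and no evidence that a factor binds. The median GC content of the windows was 49.5% in the 12 peaks, 46.0% in the 25 and 48.7% over all windows.

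The peaks differed widely in how open they were. Over the 10 libraries the mean level ran from 0.507 CPM to 95.2 CPM with a median of 3.14 CPM, and 23 of the 37 peaks lay below 5 CPM. Per kilobase of peak, the peak over the Maf start came first at 60.6 CPM per kb, followed by the peak 307.1 kb downstream at 46.7 and the peak 200.6 kb downstream at 38.5 CPM per kb. The peak 18.5 kb upstream, the most open one on that side in CPM, reached 18.7 CPM per kb. Peak widths ran from 200 to 1570 bases with a median of 417.

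The promoter of Maf was open at nearly the same level in every library. The peak over the start (chr8:115706847-115708416) covers the first exon with its 5' UTR and part of the coding sequence, and an exon of the antisense transcript Gm15655. It held 97.6 and 95.7 CPM for the controls of spleen, and 93.1, 89.3, 95.4 and 100.3 CPM for its Vps34-deficient libraries. In lung it held 92.8 and 101.7 CPM in the controls against 95.5 and 90.5 CPM in the Vps34-deficient libraries. Control and Vps34-deficient values overlapped in both tissues, and the log2 fold change was -0.03 in spleen (approximate 95% interval -0.18 to 0.12, adjusted p = 0.917) and -0.09 in lung (-0.27 to 0.09, adjusted p = 0.622). The second promoter peak (chr8:115705836-115706480), in the coding part of the gene 1.3 kb inside the start, held 17.4 and 19.8 CPM in the spleen controls, 19.3, 13.2, 18.5 and 18.7 CPM in spleen without Vps34, 14.5 and 18.5 CPM in the lung controls against 15.3 and 13.8 CPM in the Vps34-deficient lung libraries. Its log2 fold change was -0.09 in spleen (-0.41 to 0.23, adjusted p = 0.874) and -0.21 in lung (-0.60 to 0.19, adjusted p = 0.599). The lung fold changes of both promoter peaks turned slightly positive, to 0.02 and 0.03, without lung control replicate 2.

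The only other peak in the gene, in an intron 18.3 kb from the start (chr8:115689277-115689538), was weak. It held 1.16 and 1.38 CPM in the spleen controls against 0.278, 0.489, 0.271 and 0.718 CPM without Vps34, and 1.70 and 1.55 CPM in the lung controls against 0.325 and 0.635 CPM. Every Vps34-deficient library lay below every control of its tissue, but the peak was not called (log2 fold change -1.54 ± 0.56 (SE), adjusted p = 0.171, in spleen and -1.80 ± 0.72, adjusted p = 0.149, in lung).

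Summed over the 37 peaks, accessibility was highest in lung controls and lowest in lung Vps34-deficient Tregs. The sums were 346.2 and 374.0 CPM for lung control, 324.6 and 307.2 CPM for spleen control, 272.1, 266.6, 267.9 and 276.3 CPM for spleen Vps34-deficient and 256.0 and 257.9 CPM for lung Vps34-deficient Tregs. The group means were 360.1 ± 19.6 (SD, n = 2), 315.9 ± 12.3 (n = 2), 270.7 ± 4.39 (n = 4) and 257.0 ± 1.37 CPM (n = 2), and no 2 neighbouring groups in this order overlapped, although with TMM scaling the Vps34-deficient spleen and lung values did. The difference came from distal peaks. The 2 promoter peaks together held 115.3, 112.0, 113.8 and 107.6 CPM on average in spleen control, spleen Vps34-deficient, lung control and lung Vps34-deficient Tregs. Over the 10 peaks at 10 to 100 kb the means were 60.3 CPM in spleen control and 37.3 CPM in spleen Vps34-deficient Tregs, so that the sum fell by 38.2%. In lung it fell by 61.0%, with means of 92.7 and 36.2 CPM. The 25 peaks beyond 100 kb gave 140.3 and 121.5 CPM in spleen and 153.6 and 113.2 CPM in lung. Their sum fell by 13.4% in spleen and fell by 26.3% in lung. In bulk libraries, a smaller share of cells with a site open and a site less open in every cell cannot be told apart.

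**Figure D1:**
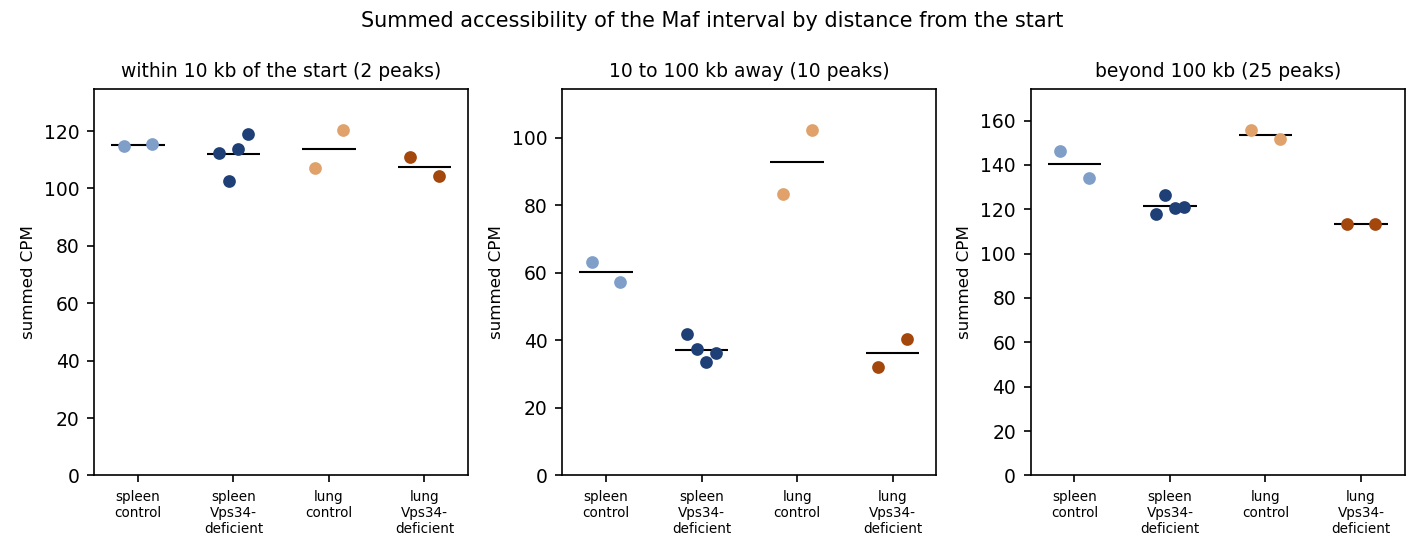
Summed accessibility of the Maf peaks in CPM by distance from the start, for each library (points) with group means (lines). The 2 peaks near the start sat between 102.5 and 120.2 CPM in every library, whereas at 10 to 100 kb the Vps34-deficient libraries held 32.0 to 41.7 CPM and the controls 57.3 to 102.1 CPM.

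To describe the effect of Vps34 loss in spleen, the 4 Vps34-deficient libraries were compared with the 2 controls. Of the 37 peaks, 7 were called lower and 0 higher (edgeR quasi-likelihood test, Benjamini-Hochberg adjusted p below 0.05 over 97109 peaks and an absolute log2 fold change above 0.5), that is 18.9% lower, beside 1.02% of all tested peaks called lower and 0.440% called higher. The median log2 fold change over the 37 peaks was -0.43, against 0.05 over all tested peaks, and 27 of the 37 were negative (73.0%, beside 43.5%). In 15 of the 37 peaks every Vps34-deficient library lay below both controls, beside 11.1% of all tested peaks, and the 7 called peaks were among them. In 2 every one lay above both, as in 14520 of the 97109 tested peaks. At an unadjusted p below 0.05 there were 13 of the 37 (35.1%, beside 14.3%). All 7 were distal, 4 upstream of the start and 3 downstream, and 5 of them lay between 10 and 100 kb from it.

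The most open of the upstream elements was the peak at 18.5 kb (chr8:115726290-115727226). It held 23.5 and 21.1 CPM in the controls against 14.3, 11.3, 10.5 and 10.8 CPM without Vps34, so that the groups did not overlap, and the log2 fold change was -0.93 ± 0.16 (SE, adjusted p = 0.00162). Further out at 34.8 kb (chr8:115742630-115743096), the controls held 5.79 and 5.99 CPM and the Vps34-deficient libraries 3.48, 3.30, 2.71 and 2.30 CPM, a log2 fold change of -1.0 ± 0.24 (adjusted p = 0.0297). A pair of weaker peaks followed. The peak at 39.8 kb (chr8:115747545-115748198) held 1.60 and 3.72 CPM in the controls and 0.278, 0.489, 0.361 and 0.861 CPM without Vps34, a log2 fold change of -2.41 ± 0.43 (adjusted p = 0.00276). The peak at 41.0 kb (chr8:115748778-115748977) was near the limit of detection, with 20 and 16 counts in the controls and 0, 2, 4 and 0 counts in the Vps34-deficient libraries (log2 fold change -3.39 ± 0.83, adjusted p = 0.0299). Taken as read pairs of 2 counts each, these were 18 against 3. The ratio of control to deficient was 10.8 (exact 95% interval of counting error 3.17 to 57.5). The peak at 41.0 kb was the least open of the 37.

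On the downstream side, the peak at 89.0 kb (chr8:115617993-115618752) held 11.6 and 9.09 CPM with Vps34 and 5.70, 4.53, 4.69 and 6.89 CPM without it, a log2 fold change of -0.93 ± 0.20 (adjusted p = 0.0145). At 176.1 kb (chr8:115531026-115531675) the controls held 8.11 and 6.34 CPM and the Vps34-deficient libraries 4.17, 1.83, 2.26 and 3.30 CPM, a log2 fold change of -1.34 ± 0.27 (adjusted p = 0.00776). The strongly open peak at 200.6 kb (chr8:115506692-115507229) fell least, from 26.6 and 24.5 CPM to 17.5, 17.7, 19.0 and 17.5 CPM (log2 fold change -0.51 ± 0.13, adjusted p = 0.0391). All of these groups were apart, with every Vps34-deficient library below both controls.

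The number of spleen calls changed with the libraries used. Where 1 library of a pair is left out, the lone library is assumed to vary like the other groups. Without spleen control replicate 1, 2 peaks were called lower, without spleen control replicate 2, 3 were, and without spleen Vps34-deficient replicate 4, 4 were. Leaving out each of the 10 libraries in turn, the peak 18.5 kb upstream was the only one of the 7 called every time. The peak at 39.8 kb lost its call without spleen control replicate 2 (log2 fold change -1.73, adjusted p = 0.157), and those at 89.0 and 176.1 kb without spleen control replicate 1 (-0.80, adjusted p = 0.288, and -1.20, adjusted p = 0.188). Those at 34.8, 41.0 and 200.6 kb lost theirs when any 1 of 3 to 5 libraries was left out, with adjusted p up to 0.319. The fold changes kept their sign in every alternative run, from -0.78 to -1.12 at 34.8 kb, from -3.07 to -4.26 at 41.0 kb and from -0.50 to -0.59 at 200.6 kb. With the replicate number added to the fit, the call at 18.5 kb was lost (log2 fold change -0.79, adjusted p = 0.119 in edgeR), and only that at 39.8 kb was kept.

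**Figure D2:**
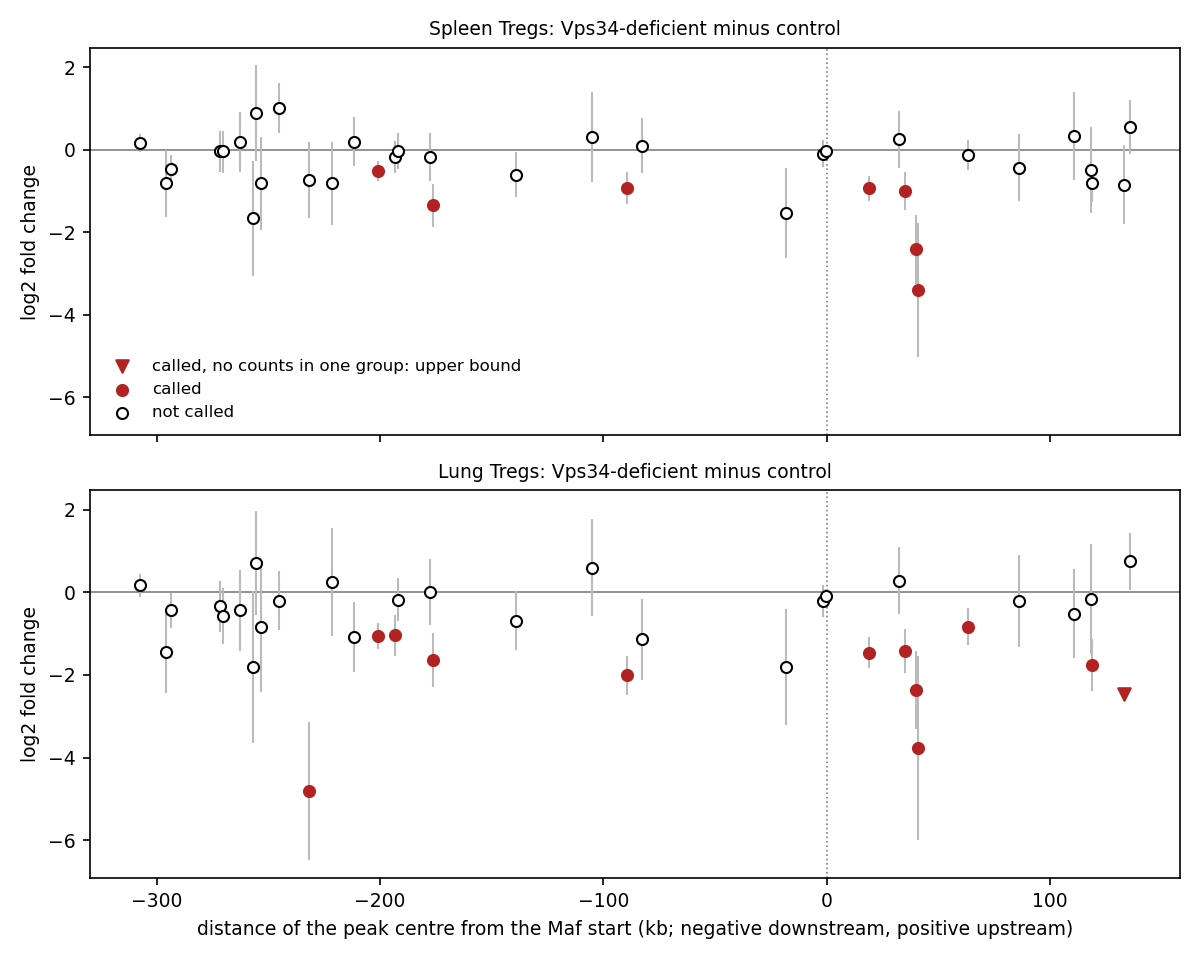
The log2 fold change of each of the 37 peaks (Vps34-deficient minus control) against the distance of its centre from the Maf start in kb, in spleen (top) and lung (bottom), with approximate 95% intervals (grey). Filled points were called and the triangle is the bound for a peak without counts in 1 group. The called peaks, 7 in spleen and 12 in lung, all lay below 0 and on both sides of the start, whereas the promoter peaks lay near 0.

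In lung, 12 of the 37 peaks were called lower in Vps34-deficient Tregs and 0 higher, that is 32.4% lower, beside 3.74% of all tested peaks called lower and 1.22% called higher. The median log2 fold change over the 37 peaks was -0.68, against 0.02 over all tested peaks, and 30 were negative (81.1%, beside 48.2%). In 19 of them both Vps34-deficient libraries lay below both controls, beside 22.0% of all tested peaks, and in 5 both lay above, beside 23.8%. At an unadjusted p below 0.05 there were 17 (45.9%, beside 20.3%). The 12 included all 7 of the spleen calls, which is 100% of the spleen list and 58.3% of the lung list. The same overlap over all tested peaks was not counted, so this one is not shown to be particular to the locus. In lung 7 lay upstream and 5 downstream.

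The smallest adjusted p in lung were at 89.0 kb downstream and 18.5 kb upstream. The peak at 89.0 kb held 19.4 and 25.0 CPM in the controls against 5.52 and 5.71 CPM in the Vps34-deficient libraries (log2 fold change -2.01 ± 0.25, adjusted p = 2.5e-05). The peak at 18.5 kb held 29.6 and 31.4 CPM against 9.58 and 13.1 CPM (-1.46 ± 0.19, adjusted p = 6.32e-05). In both, each control library exceeded the sum of the 2 Vps34-deficient libraries. At 200.6 kb downstream 27.9 and 28.8 CPM stood against 14.8 and 12.9 CPM (-1.05 ± 0.16, adjusted p = 0.000218), and at 176.1 kb downstream 8.72 and 12.1 CPM against 3.25 and 3.60 CPM (-1.64 ± 0.33, adjusted p = 0.00386). The upstream peak at 34.8 kb fell from 10.2 and 14.96 CPM to 4.39 and 5.29 CPM (-1.42 ± 0.28, adjusted p = 0.00281) and that at 39.8 kb from 6.38 and 6.77 CPM to 1.14 and 1.48 CPM (-2.36 ± 0.48, adjusted p = 0.00391). No control value overlapped a Vps34-deficient value in these 6 peaks.

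Of the 5 peaks called in lung alone, 3 fall under the rule for named peaks. The peak 118.8 kb upstream (chr8:115826569-115826999) held 8.08 and 7.34 CPM in the lung controls and 3.00 and 1.48 CPM without Vps34 (-1.76 ± 0.32, adjusted p = 0.00152). In spleen its controls held 7.22 and 7.30 CPM and its Vps34-deficient libraries 3.90, 3.67, 3.97 and 5.17 CPM, with no overlap but an adjusted p of 0.0905. The other two had almost no counts left. At 133.0 kb upstream (chr8:115840833-115841038) the lung controls held 12 and 24 counts and both Vps34-deficient libraries 0 (adjusted p = 0.00197). With a floor of 3 read pairs over the group, the 18 control read pairs give a bound of 5.54-fold lower. This bound leaves out the counting error of the 18 pairs. At 231.8 kb downstream (chr8:115475691-115475966) the controls held 28 and 36 counts and the Vps34-deficient libraries 2 and 0, a ratio of control to deficient of 29.5 on 32 read pairs and 1 (4.93 to 1200, adjusted p = 0.000985). At 41.0 kb upstream, called in both tissues, the lung libraries held 10 and 22 counts against 2 and 0, a ratio of 14.8 on 16 read pairs and 1 (2.29 to 619, adjusted p = 0.0468). Such intervals, at the same 95% level, cover counting error only. The lung call at 41.0 kb held in 8 of 19 alternatives. Median-of-ratios scaling, a replicate block and a fit of the compared groups alone were among those without it. The remaining pair, outside the rule and named here to complete the 12, lay 192.9 kb downstream and 63.2 kb upstream, with log2 fold changes of -1.04 (adjusted p = 0.0149) and -0.83 (adjusted p = 0.033).

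Of the 12 lung calls, 6 were made with every library left out in turn, those at 18.5, 118.8 and 133.0 kb upstream and at 89.0, 200.6 and 231.8 kb downstream. The number called fell to 7 without lung control replicate 2 and to 7 without lung Vps34-deficient replicate 1. The peaks at 34.8 kb upstream and 176.1 kb downstream lost their calls in both cases (adjusted p from 0.0667 to 0.0985), that at 39.8 kb without lung Vps34-deficient replicate 1 (adjusted p = 0.0745), that at 192.9 kb in 3 of the 10 cases and that at 63.2 kb in 6 of them (adjusted p up to 0.262), and that at 41.0 kb without any of 6 libraries and in DESeq2 (adjusted p = 0.0691). Without lung control replicate 1, 1 peak was called higher.

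**Figure D3:**
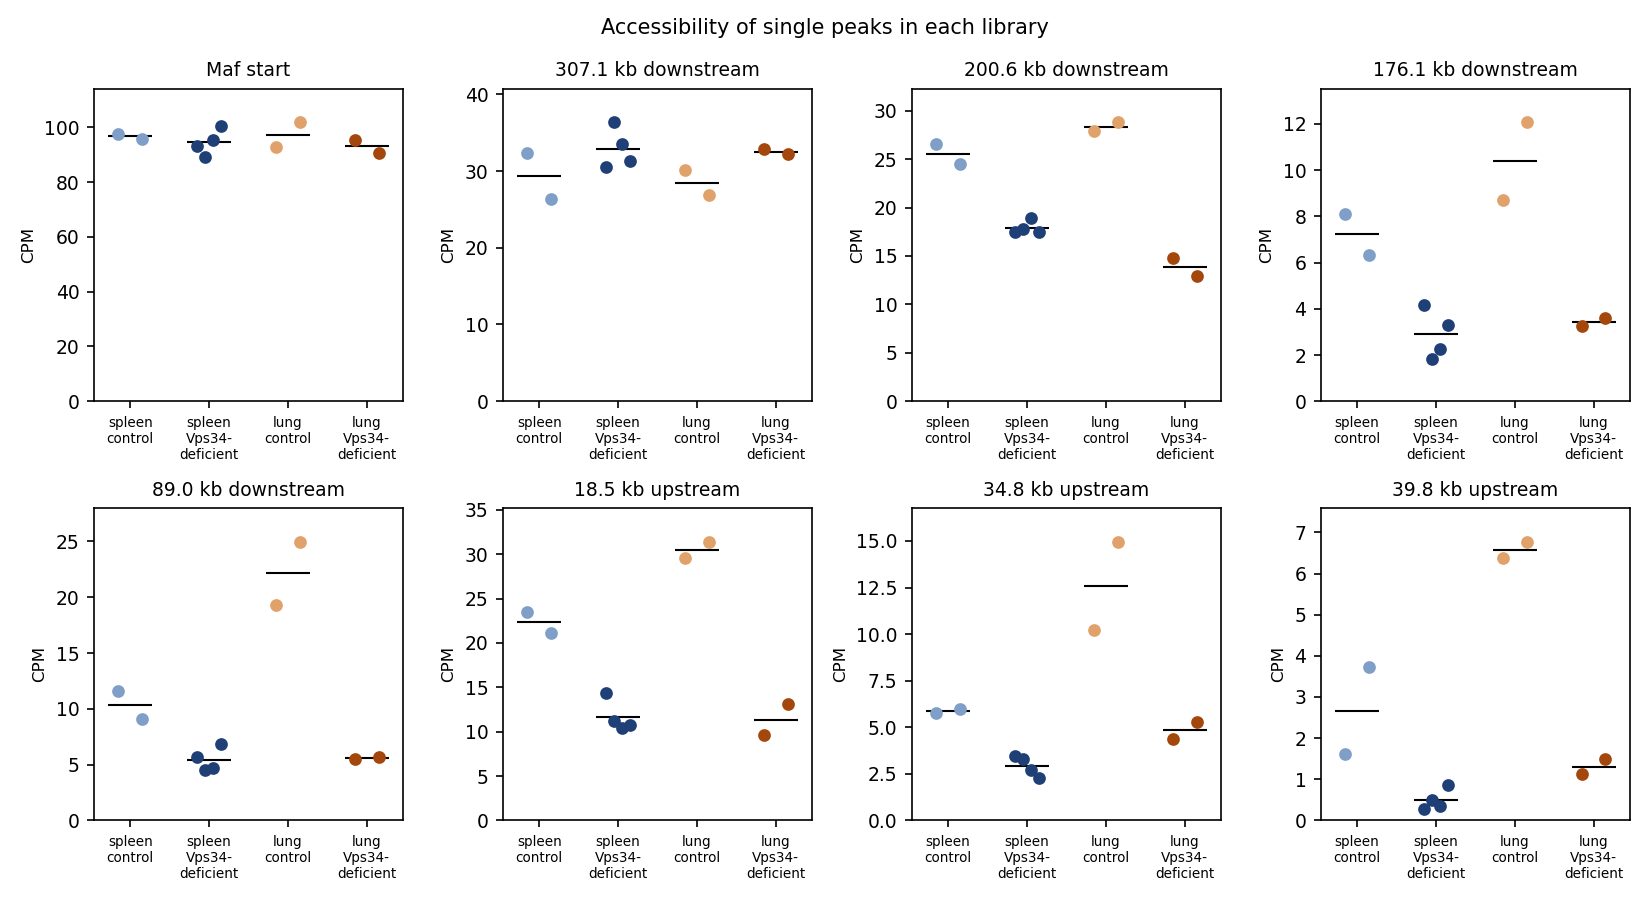
Accessibility in CPM of 8 peaks of the Maf locus in each library (points) with group means (lines), where each panel starts at 0. The peak over the Maf start and the one 307.1 kb downstream overlap between genotypes in spleen, whereas in the other 6 panels every Vps34-deficient library lies below the controls of its tissue.

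The 25 peaks called in neither tissue had log2 fold changes from -1.66 to 1.02 in spleen (median -0.03, 15 negative) and from -1.81 to 0.76 in lung (median -0.22, 18 negative). They include open distal elements. The peak 307.1 kb downstream (chr8:115400014-115400681), the second most open of the locus, held 32.4 and 26.3 CPM in the spleen controls, 30.5, 36.3, 33.5 and 31.3 CPM in spleen without Vps34, 30.2 and 26.8 CPM in the lung controls against 32.8 and 32.2 CPM in the Vps34-deficient lung libraries. Its log2 fold changes were 0.17 in spleen (-0.06 to 0.39) and 0.17 in lung (-0.10 to 0.44), so that a fall like that of the 18.5 kb peak lies outside both intervals. The peak 293.3 kb downstream (chr8:115414074-115414532) was lower without Vps34 in every library of its tissue but not called, with 14.6 and 12.8 CPM in the spleen controls against 8.21, 11.1, 9.75 and 10.8 CPM, and 15.9 and 12.1 CPM in the lung controls against 11.05 and 9.95 CPM (adjusted p = 0.198 and 0.262). At the ends of the window, the peaks just inside held 31.2 and 5.86 CPM on average, and those just outside held 67.2 CPM downstream and 8.91 CPM upstream.

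Whether the effect of Vps34 loss differed between the tissues was tested by the interaction term. None of the 37 peaks passed (0 called by edgeR and 0 by DESeq2, smallest adjusted p = 0.35 in edgeR), and 0 of the 97109 tested peaks did in edgeR. Over all tested peaks DESeq2 called 2 higher and 22 lower, and edgeR without lung control replicate 1 called 10 higher and 11 lower. At an unadjusted p below 0.05 there were 10 of the 37 (27.0%) and 7065 of all peaks (7.28%). The larger falls in lung are therefore not shown to differ from those in spleen. For the peak 89.0 kb downstream, the lung log2 fold change was lower than that of spleen by an estimated difference of -1.07 (adjusted p = 0.42), and for the peak 231.8 kb downstream by -4.09 (adjusted p = 0.35).

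To see how the locus differs between the sites, lung was compared with spleen within each genotype. Among controls, 6 of the 37 peaks were called higher in lung and 0 lower, beside 11.8% of all tested peaks called higher and 3.53% called lower, so that 16.2% of the locus was higher. That share is near the one over all peaks. At an unadjusted p below 0.05 in edgeR there were 8 of the 37 (21.6%, beside 29.2%). The median log2 fold change was 0.23, against 0.04 over all tested peaks. Per-library levels in controls, given above for 4 of them, were higher in lung at 89.0 kb downstream (log2 fold change 1.18 ± 0.22, adjusted p = 0.000914) and at 34.8 kb (1.18 ± 0.26, adjusted p = 0.00303), 39.8 kb (1.41 ± 0.43, adjusted p = 0.0254) and 18.5 kb upstream (0.53 ± 0.18, adjusted p = 0.049). The 18.5 kb call held in 2 of 20 alternatives, and was lost whichever library was left out and in DESeq2 (adjusted p = 0.0656). At 110.6 kb upstream (chr8:115818402-115818614) lung controls held 3.40 and 1.41 CPM and spleen controls 0.535 and 0.551 CPM (2.18 ± 0.59, adjusted p = 0.0126). At 135.8 kb upstream (chr8:115843589-115843799), the last peak in the window, 9.78 and 3.95 CPM in lung stood against 1.78 and 3.86 CPM in spleen (1.36 ± 0.38, adjusted p = 0.0163). Over the alternative runs the log2 fold change there moved between 0.54 and 1.94. At 110.6 kb it moved between 1.37 and 2.62, and at 39.8 kb between 0.80 and 2.06. Without spleen control replicate 1, 1 of these 6 calls was left, without lung control replicate 1, 2 were, and without lung control replicate 2, 3 were. The 89.0 kb peak was the only one called with each library left out in turn.

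Among Vps34-deficient Tregs, 3 of the 37 peaks were called higher in lung and 4 lower, that is 8.11% and 10.8%, beside 12.4% and 4.72% of all tested peaks, and the median log2 fold change was 0.00, against -0.03 over all tested peaks. At an unadjusted p below 0.05 in edgeR there were 12 of the 37 (32.4%, beside 31.0%). The peak at 18.5 kb upstream stood at 10.5 to 14.3 CPM in spleen and at 9.58 and 13.1 CPM in lung (0.00 ± 0.17), and that at 89.0 kb downstream at 4.53 to 6.89 CPM and at 5.52 and 5.71 CPM (0.10 ± 0.23), so that lung and spleen values overlapped in both. The peaks at 34.8 kb (0.76 ± 0.26, adjusted p = 0.04), 39.8 kb (1.45 ± 0.51, adjusted p = 0.0441) and 135.8 kb upstream (1.57 ± 0.30, adjusted p = 0.000708) were called higher in lung. At 135.8 kb the spleen libraries held 3.90, 4.16, 2.98 and 5.17 CPM and the lung libraries 10.7 and 12.3 CPM. The calls at 34.8 and 39.8 kb held in 8 and 11 of 20 alternatives (adjusted p up to 0.293 with the others), and 1 peak was called higher without spleen Vps34-deficient replicate 2 or 3 or either lung Vps34-deficient replicate.

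Called lower in lung among Vps34-deficient Tregs were the peaks at 231.8, 211.4 and 82.3 kb downstream and at 133.0 kb upstream. The peak 211.4 kb downstream (chr8:115495962-115496405) held 4.73, 5.50, 4.60 and 4.31 CPM in spleen and 1.95 and 0.635 CPM in lung (-1.77 ± 0.37, adjusted p = 0.00174). The peak 82.3 kb downstream (chr8:115625066-115625505) held 3.20, 2.81, 3.52 and 3.44 CPM in spleen and 0.487 and 1.48 CPM in lung (-1.73 ± 0.43, adjusted p = 0.00689). Over the alternative runs the log2 fold change moved from -1.18 to -2.79 at 211.4 kb and from -1.02 to -2.60 at 82.3 kb. At 133.0 kb upstream 60 counts over the 4 spleen libraries stood against 0 in lung. With 30 read pairs against a floor of 3 over the group, the bound was 3.26-fold lower, without the counting error of the 30. At 231.8 kb downstream there were 64 counts in spleen against 2 in lung, a ratio of 10.4 on 32 read pairs and 1 (exact 95% counting interval 1.74 to 424). Without lung Vps34-deficient replicate 2, 2 of the 4 calls were left, since those at 231.8 kb (adjusted p = 0.107) and 211.4 kb (adjusted p = 0.0633) were lost, and that at 82.3 kb was lost without lung Vps34-deficient replicate 1 (adjusted p = 0.185). Each tissue comparison uses the same libraries as 1 arm of each genotype comparison, so their values for a peak are not independent.

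**Figure D4:**
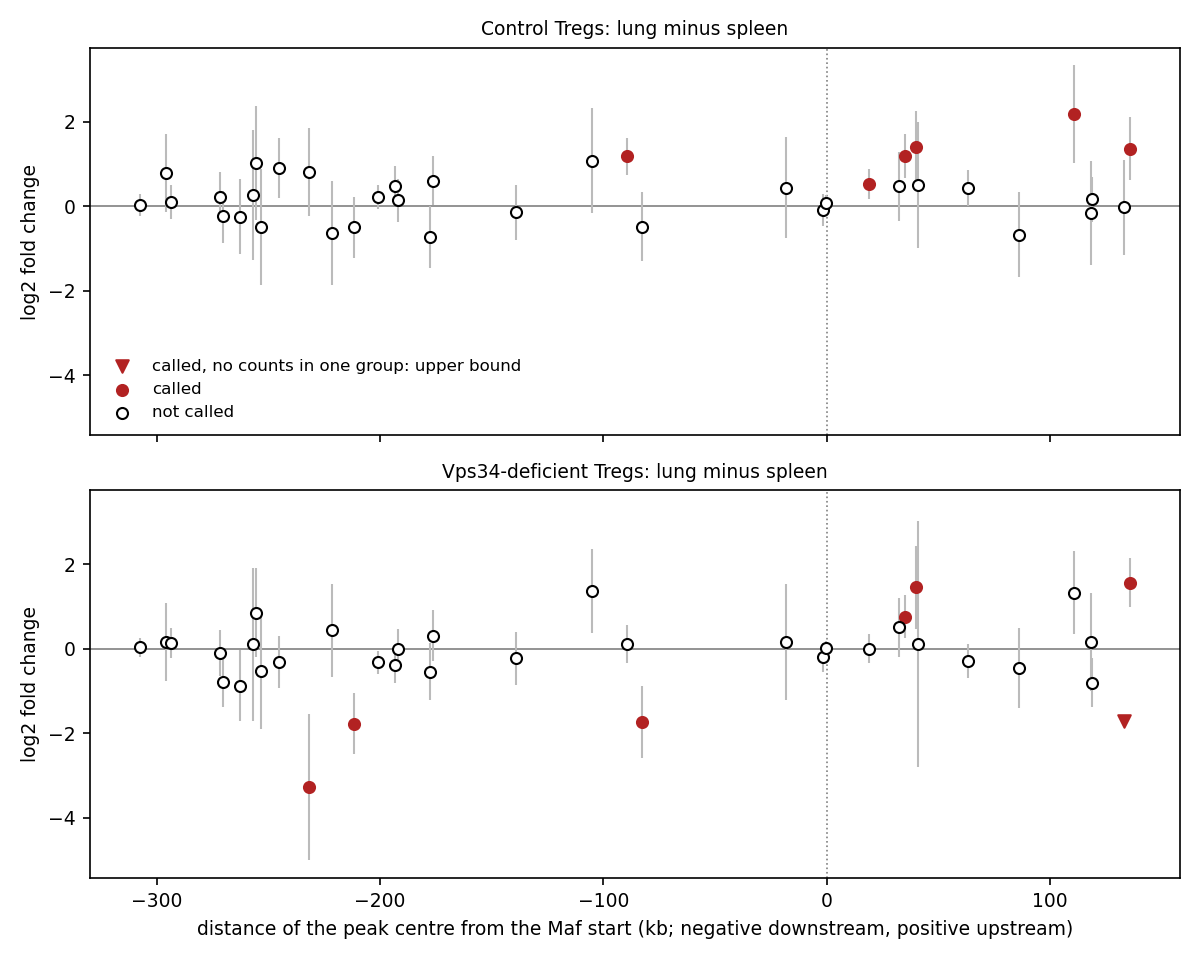
The log2 fold change of each of the 37 peaks (lung minus spleen) against the distance of its centre from the Maf start in kb, among control (top) and Vps34-deficient Tregs (bottom), with approximate 95% intervals (grey). Filled points were called and the triangle is the bound for a peak without counts in lung. The 6 calls in controls lay above 0, and of the 7 calls in Vps34-deficient Tregs 3 lay above and 4 below.

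Genes related to Maf were read in the same fit, from the tested peaks that overlapped the gene extended by 10 kb on each side. The other Maf proteins and the leucine zipper factors that pair with small Maf proteins (Mafa, Nrl, Maff, Mafg, Mafk, Bach1, Nfe2, Nfe2l1, Nfe2l2 and Nfe2l3) had 39 tested peaks in 9 of 10 genes. In spleen 0 of these were called in either direction, and in lung 3 were called higher (7.69%, beside 1.22% of all tested peaks) and 0 lower (beside 3.74%), all 3 at Bach1, a repressor that pairs with small Maf proteins. Their median log2 fold change was 0.03 in spleen and -0.11 in lung.

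Among 15 genes reported as c-Maf targets or expressed with c-Maf in T cells (Il10, Il4, Il21, Il22, Icos, Prdm1, Batf, Irf4, Junb, Ahr, Nfil3, Cxcr5, Bcl6, Ccr6 and Tigit), 103 peaks were tested. In Vps34-deficient spleen Tregs 4 were called lower and 0 higher (3.88% lower, beside 1.02% of all tested peaks), 2 of 4 at Il10, which encodes the suppressive cytokine interleukin-10, and 2 of 6 at Tigit, which encodes an inhibitory receptor. In lung 13 were called lower and 0 higher (12.6% lower, beside 3.74%) at 7 of the genes. These were 4 of 4 peaks at Il10, 3 of 6 at Tigit, 2 of 10 at Prdm1, the gene of the effector regulator Blimp-1, and 1 each at Il4, Il21, Icos and Nfil3. At Batf, Irf4, Junb, Ahr, Cxcr5, Bcl6, Ccr6 and Il22 none was called between genotypes. The medians over the list were -0.01 in spleen and -0.16 in lung. In controls 11 of the 103 were called higher in lung than in spleen (10.7%, beside 11.8% of all tested peaks) and 1 lower (0.971%, beside 3.53%). In Vps34-deficient Tregs 5 were higher (4.85%, beside 12.4%) and 2 lower (1.94%, beside 4.72%).

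The 5 genes whose summed accessibility was most like that of the Maf locus over the 10 libraries were Rbbp8nl (Pearson's r = 0.978 on the log2 scale), Adam8 (0.976), Lmnb1 (0.976), Il10 (0.975) and Cc2d2a (0.972), out of 12212 protein-coding genes with at least 3 tested peaks. Spearman's rho was 0.976, 0.915, 0.915, 0.903 and 0.915. These values describe 10 points that share libraries, depth and the same 4 groups, and 131 genes had r above 0.9. Over its 4 peaks Il10 held 50.8 CPM in spleen controls, 28.1 CPM in Vps34-deficient spleen, 75.2 CPM in lung controls and 26.6 CPM in Vps34-deficient lung Tregs. This was the same order of groups as for Maf and for the rest of the 5 genes.

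Since macrophages use Maf too, peaks at the starts of myeloid genes were set beside these results. Of the 7 genes 4 had no tested peak there, and the summed level of the other 3 was 25.0 to 26.2 CPM in spleen controls, 19.8 to 28.3 in Vps34-deficient spleen, 25.3 to 30.7 in lung controls and 20.1 to 20.8 CPM in Vps34-deficient lung libraries. The genotypes overlapped in spleen, whereas in lung the Vps34-deficient libraries lay below the controls, as at the Maf locus. Among them Spi1, the gene of the myeloid regulator PU.1, held 13.8 and 17.2 CPM in spleen controls against 10.8, 11.1, 13.4 and 13.3 CPM, and 15.5 and 16.7 CPM in lung controls against 9.58 and 12.1 CPM. Cx3cr1 overlapped between genotypes in both tissues. It held 10.3 and 7.99 CPM in spleen controls against 8.07, 10.6, 11.5 and 14.1 CPM. In lung it held 8.08 and 12.6 CPM in controls against 9.26 and 8.04 CPM. Itgam overlapped in spleen, and in lung held 1.70 and 1.41 CPM in controls against 1.30 and 0.635 CPM. The sums of the T cell and Treg genes Foxp3, Ikzf2, Il2ra, Cd4 and Cd3e were 202 to 220 CPM in spleen controls, 190 to 228 in Vps34-deficient spleen, 165 to 210 in lung controls and 160 to 183 CPM in Vps34-deficient lung libraries. For CD8 and NK cell genes the sums were 28.1 to 32.5 CPM in spleen controls, 26 to 37.5 in Vps34-deficient spleen, 23.2 to 27.6 in lung controls and 32.9 to 34.3 CPM in Vps34-deficient lung libraries, so that in lung the Vps34-deficient libraries lay above the controls. For lung epithelium they were 34.1 to 35.5 CPM in spleen controls, 28.3 to 32.4 in Vps34-deficient spleen, 25.1 to 30.9 in lung controls and 26.6 to 26.7 CPM in Vps34-deficient lung libraries, so that in spleen the Vps34-deficient libraries lay below the controls. Over all libraries the sums ran from 28.5 to 38.5 CPM for B cell genes and from 28.7 to 37.4 CPM for endothelium, with overlapping genotypes in both tissues. The part of these lists in the results at Maf was not tested.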

How the data were processed

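The authors trimmed paired-end reads, aligned them with BWA, removed duplicates, shifted read ends for the Tn5 cut and kept nucleosome-free fragments. Peaks were called per sample with MACS2 (version 2.1.0.20150603 in the submitters' processing notes), kept if found in at least 50% of a genotype's replicates and merged. The deposited table holds raw counts for each peak and library, and 91.5% to 96.5% of them are even. This would follow if both mates were counted, which the read pairs given above assume. The processing notes name mm10 and GRCm38, which the coordinates follow, although the methods name mm9. For spleen the methods give 4 control and 2 Vps34-deficient samples, and the labels give 2 and 4. The labels were used. Genes are from GENCODE and sequences from RefSeq, both on GRCm38.

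Here CPM are counts per 1000000 counts of a library. Counts were fitted in edgeR 4.0.16 (R 4.3.3) with TMM scaling, filterByExpr, 4 groups over 10 libraries and quasi-likelihood F-tests, adjusted by Benjamini-Hochberg over 97109 peaks. A call needed an adjusted p below 0.05 together with a log2 fold change beyond 0.5 either way. The procedure was tested on simulated data. Named peaks were those within 1 kb of a Maf start or in the gene, the 6 with the highest mean CPM, and in each of 4 comparisons up to 8 called peaks with the smallest p. The peaks and gene lists were chosen with earlier results of these data known. Some members of these lists and a sequence are not reported here. No pair of replicates agreed within sampling noise. Libraries with the same replicate number did not deviate together from their group means (correlations of deviations from -0.149 to 0.099). Such correlations cannot show whether a spleen and a lung library came from the same mouse. Spleen and lung libraries with the same genotype and number, 1 or 2, were alike in having few or many chromosome Y counts. Alternatives were other scalings and filters, DESeq2 1.42.0, halved counts, a chromosome Y covariate, a replicate block, the compared groups alone and leaving out each library.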

Additional observations from a re-analysis of the deposited data

Results flagged for a closer look

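In the 4 Vps34-deficient spleen libraries, 1 library stood apart at each of 2 named peaks, a different library each time. At 200.6 kb downstream replicate 3 held 19.0 CPM against 17.5 to 17.7 CPM in the others, a gap of 0.845 of the range, and all 4 remained below the controls at 26.6 and 24.5 CPM. At the promoter peak 1.3 kb inside Maf, replicate 2 held 13.2 CPM against 18.5 to 19.3 CPM in the others, a gap of 0.864 of the range. Both gaps exceed Dixon's 95% limit for 4 values, which chance passes in about 1 of 20 groups.

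The weak peak 221.3 kb downstream (chr8:115486287-115486527) had mean differences of opposite sign in the 2 tissues. Spleen controls held 0.980 and 1.51 CPM against 0.695, 0.856, 0.542 and 0.718 CPM without Vps34, and lung controls 0.638 and 0.847 CPM against 0.975 and 0.847 CPM. The difference of the log2 fold changes was 1.07 (interval -0.58 to 2.72, unadjusted p = 0.213 in edgeR, not called), on 6 to 22 counts per library.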

How the results depend on the processing

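Under library-size and median-of-ratios scaling, DESeq2, the other count filters, halved counts, the chromosome Y covariate and no fold threshold, the spleen count stayed at 7 lower and the lung count at 11 or 12 lower, with 0 higher, and the compared groups alone gave 8 and 9. Whether the replicate numbers pair spleen and lung libraries by mouse is not known. With the replicate block 1 peak was called lower in spleen, 10 in lung, and 1 higher in lung among Vps34-deficient Tregs, and with the crossed replicate block, chosen after seeing the data, these were 2, 11 and 1. The spleen peak kept with the replicate block was that at 39.8 kb upstream, and that at 18.5 kb upstream was lost (log2 fold change -0.79, adjusted p = 0.119). The cause was not tested. Leaving out each library in turn gave 2 to 8 peaks called lower in spleen, 7 to 12 lower and 0 to 1 higher in lung, 1 to 5 higher in lung among controls, and 1 to 4 higher and 2 to 5 lower in lung among Vps34-deficient Tregs. The summed accessibility of Vps34-deficient lung libraries was 262 CPM with TMM scaling and 262 CPM with median-of-ratios scaling, beside 257 CPM, and that of Vps34-deficient spleen libraries was 266 CPM with TMM scaling, beside 271 CPM. The order of the group means held under both, but with TMM scaling both lung values lay within the range of the spleen ones. The lung fold changes at the promoter reversed to 0.03 (1.3 kb peak) and 0.02 (start peak) without lung control replicate 2, and to 0.03 (start peak) without lung Vps34-deficient replicate 2. Over all single-library omissions they ran from -0.27 to 0.03 (1.3 kb peak) and from -0.10 to 0.03 (start peak). Of 34 named fold changes, no other turned direction in any setting. Groups of 2 libraries and few counts at the weakest peaks limit what can be called.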

Other observations

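The strongest rise at the locus without Vps34 was in spleen, at the peak 245.1 kb downstream (chr8:115462150-115462645), chosen after its values were seen. The controls held 1.51 and 1.79 CPM and the Vps34-deficient libraries 3.48, 3.67, 2.89 and 3.30 CPM, a log2 fold change of 1.02 ± 0.31 that was not called (adjusted p = 0.0997). In lung the controls held 3.19 and 2.68 CPM and the Vps34-deficient libraries 2.44 and 2.75 CPM. The difference between the tissues did not pass the test (adjusted p = 0.577).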
